A study of Mus musculus with 9 samples.

Results

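The interferon-inducible GTPases described here are 9 genes chosen by name from the count table of mouse osteoclasts: the guanylate-binding proteins Gbp2, Gbp3 and Gbp7, the immunity-related GTPases Irgm1, Irgm2, Igtp and Iigp1, and the myxovirus resistance genes Mx1 and Mx2. The table lists 54532 genes, and all 9 were found in it by matching its Ensembl identifiers to symbols. Of the 9, 8 held enough reads to be tested; Iigp1 did not and is described by its reads.

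Osteoclasts, the multinucleated cells that resorb bone, were grown from bone marrow cells of mice with macrophage colony-stimulating factor (M-CSF, 20 ng/ml) and the osteoclast-inducing cytokine RANKL (10 ng/ml), and RNA was taken on day 3 and sequenced as 9 libraries. WT_CTR comprised 3 libraries from wild-type cells without further treatment. KO_CTR comprised 3 libraries labelled as Acod1-deficient, also untreated; Acod1 encodes the enzyme that makes itaconate from a citric acid cycle intermediate. KO_4OI comprised 3 libraries labelled as Acod1-deficient treated on day 1 with 4-octyl-itaconate (4-OI, 50 µM), an itaconate ester that enters cells. All groups thus shared the same cytokines, and wild-type cells with 4-OI are not analysed here. The labels name no interferon treatment, and they give neither strain, sex and age of the mice nor the nature of the Acod1 allele. Nothing in the labels ties the replicates to separate mice; the p-values therefore describe variation among these libraries, some of which may be technical.

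These GTPases are among the genes most strongly induced by interferons in many cell types and act in cell-autonomous defence against microbes that enter a cell. Type I interferon acts on its target genes through a complex that contains STAT2 and IRF9 and binds the interferon-stimulated response element, whereas interferon gamma acts through the gamma-activated site. Guanylate-binding proteins coat pathogen vacuoles and cytosolic bacteria, effector immunity-related GTPases load onto vacuoles, the Irgm proteins keep those effectors inactive on the cell's own membranes, and Mx proteins block virus replication.

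The sequences before the start sites are shown first, because both elements named above are short sequences that lie before the start of many interferon-induced genes. RefSeq promoter windows of 300 bases (GRCm38.p6, the same primary assembly as mm10) were read for 6 of the 9 members: Gbp2, Gbp3, Gbp7, Irgm1, Irgm2 and Igtp. The windows of Iigp1, Mx1 and Mx2 were not used here. Each stretch holds the 120 bases before the RefSeq start of transcription, 5′ to 3′ on the strand of the gene. Capitals mark matches on either strand to the response element core (GAAA, any 2 bases, GAAA) or the gamma-activated site core (TTC, any 3 bases, GAA).
Gbp2: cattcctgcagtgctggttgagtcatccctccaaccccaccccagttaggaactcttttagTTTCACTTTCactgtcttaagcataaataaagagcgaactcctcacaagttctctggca
Gbp3: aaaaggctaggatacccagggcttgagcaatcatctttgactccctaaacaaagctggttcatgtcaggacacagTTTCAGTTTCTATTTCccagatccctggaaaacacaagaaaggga
Gbp7: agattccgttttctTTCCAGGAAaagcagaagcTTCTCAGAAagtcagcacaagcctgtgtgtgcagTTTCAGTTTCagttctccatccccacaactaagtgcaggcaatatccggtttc
Irgm1: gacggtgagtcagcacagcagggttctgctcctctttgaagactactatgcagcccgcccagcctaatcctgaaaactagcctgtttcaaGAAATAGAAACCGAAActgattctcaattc
Irgm2: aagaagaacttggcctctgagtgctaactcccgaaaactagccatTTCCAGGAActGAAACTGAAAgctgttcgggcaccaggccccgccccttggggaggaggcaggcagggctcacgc
Igtp: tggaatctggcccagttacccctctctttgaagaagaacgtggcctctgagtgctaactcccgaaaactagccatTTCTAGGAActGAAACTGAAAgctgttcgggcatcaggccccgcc
The stretches lie at chr3:142620543-142620662 for Gbp2, chr3:142559924-142560043 for Gbp3, chr3:142530216-142530335 for Gbp7, chr11:48871421-48871540 for Irgm1, chr11:58214857-58214976 for Irgm2, chr11:58199436-58199555 for Igtp; Irgm1 is on the minus strand and the others are on the plus strand. The gene spans given below come from GENCODE, whose starts can differ from those of RefSeq. By those spans the Irgm1 and Irgm2 stretches lie inside the gene, and the Gbp2 and Gbp3 stretches reach into it. All 6 held a response element core between 24 and 64 bases before the RefSeq start, and Gbp3 and Irgm1 held a pair of overlapping matches. Gbp7, Irgm2 and Igtp also held a gamma-activated site core, and Gbp7 held a pair of them. In Irgm2 and Igtp the gamma-activated core began 11 bases before the response element core, and the same spacing was found in Tgtp1 and Tgtp2, 2 effector genes of the family. The Irgm2 and Igtp stretches are nearly the same letters around these matches, and Tgtp1 shares 79.4% of the 50-base words of its transcripts with Tgtp2. The windows of such close copies are not independent occurrences, here or in the counts below. In Gbp7 the gap was 34 bases. No match to one core overlapped a match to the other. Of all 32851 RefSeq mouse promoters of this length, 3.44% held the response element core, 8.3% held the gamma-activated core and 0.454% held both. The members have 7 windows, since Gbp3 has a second start; 6 of the 7 held the response element core and 3 held both, and the second Gbp3 window held neither. A match describes letters in a window and is neither a shown binding site nor a cause of the changes reported here.

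**Figure D1:**
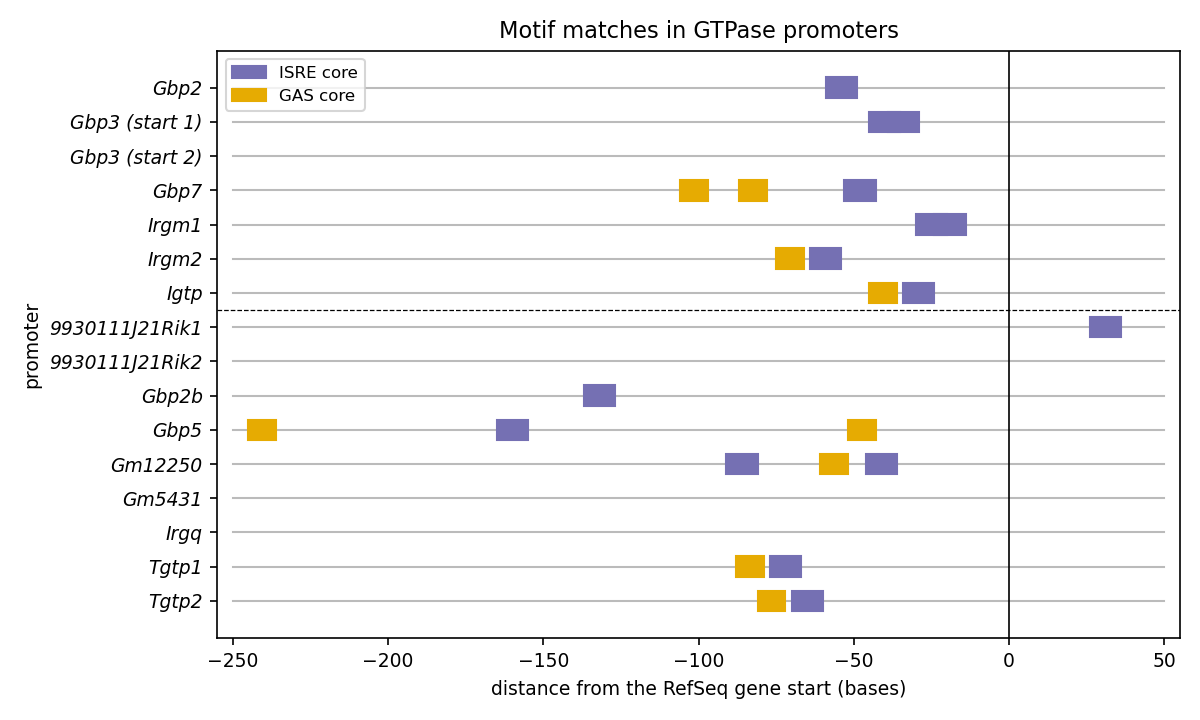
Position of each motif match in bases from the RefSeq gene start (x axis, start at 0) in the promoter windows of the members (rows above the dashed line) and their relatives (rows under it); colour gives the motif, the interferon-stimulated response element core (ISRE) or the gamma-activated site core (GAS). The response element matches of the 6 members with a window lie within 64 bases of the start, and Irgm2, Igtp, Tgtp1 and Tgtp2 share the 11-base spacing.

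The labelled genotype and the libraries were checked before the members were read. Acod1 held 24, 27 and 55 reads in the WT_CTR libraries, 60, 86 and 47 in KO_CTR and 135, 168 and 131 in KO_4OI. Acod1 reads were thus not lower in the libraries labelled as deficient (log2 fold change 1.08, SE 0.32, adjusted p = 0.127 by edgeR's quasi-likelihood test for KO_CTR against WT_CTR). By the same test Acod1 was higher in KO_4OI than in WT_CTR (2.24, SE 0.31, adjusted p = 1.68e-04). It was also higher in KO_4OI than in KO_CTR (1.16, SE 0.30, adjusted p = 0.0103), a call not kept in every fit that left out a library. Because a deletion can leave transcript outside the deleted part, these reads do not settle the genotype, which is used as a label throughout, also where a direction is given. Library totals ran from 24830149 to 35143629 reads. Xist, expressed from the inactive X chromosome, had 10715 reads in WT_CTR replicate 2 and 8764 in KO_4OI replicate 3 but 0 in each of the other 7 libraries, and the labels give no sex. Osteoclast markers were abundant in every library: the summed level of 10 of them (among them Acp5, Ctsk and Mmp9) was 24274 to 25616 CPM (read counts scaled to library size) in WT_CTR, 27396 to 33791 in KO_CTR and 8939 to 11309 in KO_4OI.

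Levels of different genes are compared per kilobase of merged exons. These join all annotated transcripts of a gene, so orders, shares and ratios of genes depend on annotated and not on expressed length. In WT_CTR the highest level was that of Igtp, at 3.46 ± 0.501 CPM per kb (mean ± SD, n = 3 here and below), followed by Irgm1 at 3.25 ± 0.293 and Gbp7 at 3.20 ± 0.610; these neighbours did not differ beyond their spread. Irgm2 stood at 2.22 ± 0.0876, Gbp3 at 1.85 ± 0.175, Gbp2 at 1.33 ± 0.489 and Mx1 at 1.13 ± 0.253 CPM per kb. Mx2 (0.192 ± 0.0853) and Iigp1 (0.0284 ± 0.00534 CPM per kb) were far below. In KO_CTR the order began with Igtp at 6.21 ± 1.18, Irgm1 at 5.06 ± 0.553, Gbp2 at 4.74 ± 0.930 and Irgm2 at 4.71 ± 0.812 CPM per kb, followed by Gbp7 at 3.29 ± 0.989, Gbp3 at 2.90 ± 0.692, Mx1 at 2.74 ± 0.258, Mx2 at 0.976 ± 0.150 and Iigp1 at 0.0986 ± 0.0574. Gbp2 thus moved from the sixth place of the order to the third, where Irgm1 and Irgm2 lay within its spread, as did Gbp7, Gbp3 and Mx1 among themselves. In KO_4OI the order was led by the 3 Irgm-type regulators, Igtp at 3.99 ± 0.827, Irgm1 at 2.96 ± 0.565 and Irgm2 at 2.36 ± 0.356 CPM per kb, while Gbp7 had a level of 0.968 ± 0.383, Gbp2 of 0.956 ± 0.457, Gbp3 of 0.882 ± 0.112 and Mx1 of 0.417 ± 0.0240. Gbp7, Gbp2 and Gbp3 did not differ there beyond their spread. The low end was again Mx2 (0.175 ± 0.00272 CPM per kb) and Iigp1, with no read in that group.

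**Figure D2:**
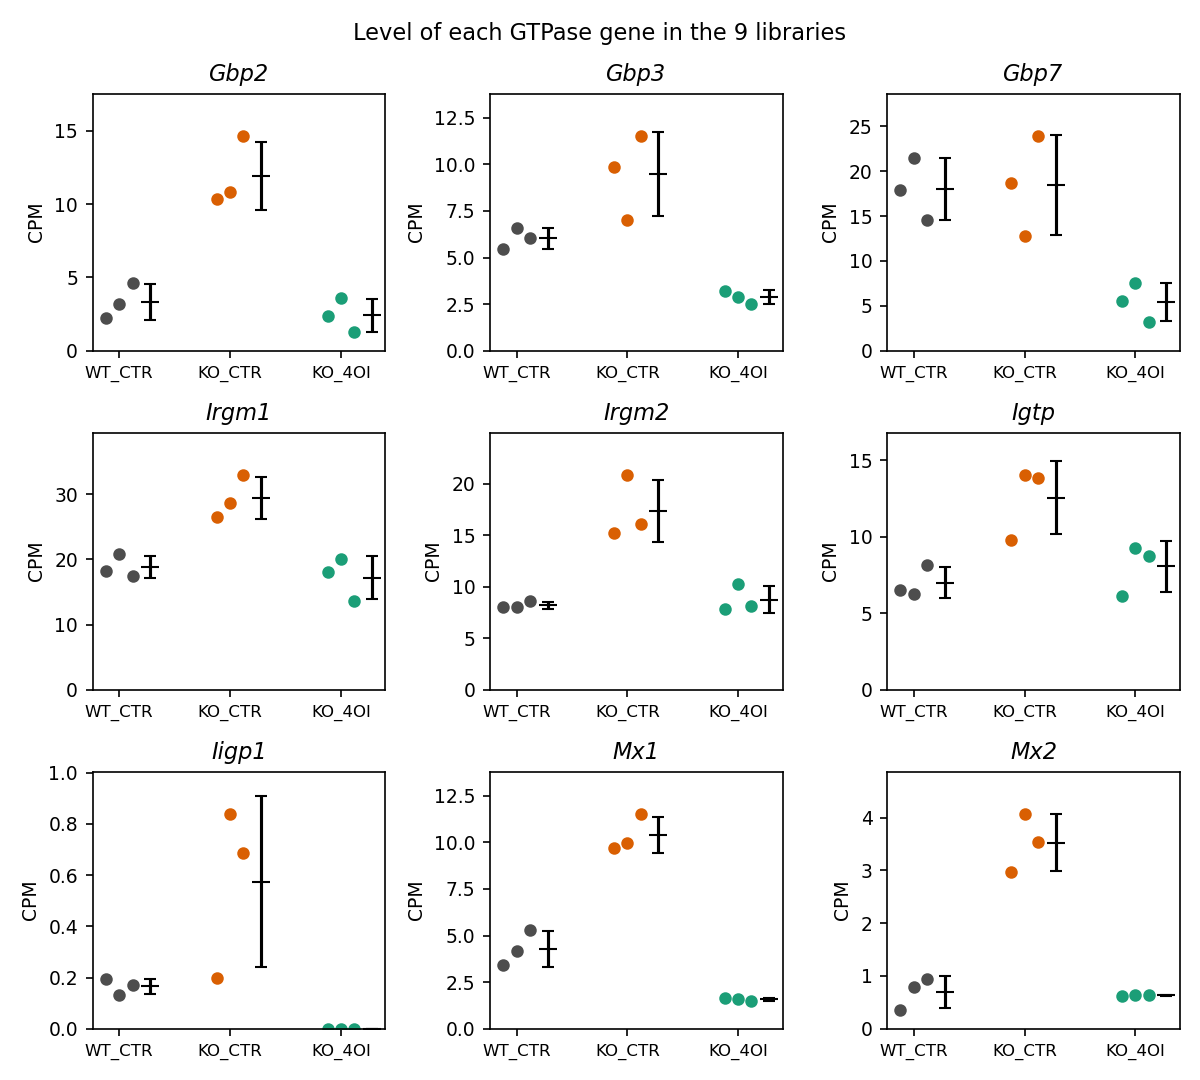
Level of each member in CPM (y axis, from 0) for the 9 libraries, by group (x axis); points are libraries, and the bar beside them gives the group mean ± SD (n = 3). For 8 of the 9 members every KO_CTR library lies above every WT_CTR library, and for all 9 every KO_4OI library lies below every KO_CTR library.

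In untreated cells the comparison of KO_CTR with WT_CTR asks what differs with the labelled loss of Acod1. Mx2, Gbp2, Mx1 and Irgm2 were higher in KO_CTR, by 4.95-fold, 3.53-fold, 2.41-fold and 2.11-fold, and Igtp, Gbp3 and Irgm1 had values in the same direction that did not pass the threshold. Gbp7 had nearly the same mean in both groups. Thus 4 of the 8 tested members rose and 0 fell at an adjusted p of 0.05 (edgeR's quasi-likelihood test, Benjamini-Hochberg over 14264 genes), and 7 had an unadjusted p below 0.05. Over all genes tested 0.519% were called in this comparison, 0.470% as higher and 0.0491% as lower. The median log2 fold change of the tested members was 0.96, against -0.025 over all genes tested. The groups did not overlap, with KO_CTR higher, for 8 of the 9 members, a pattern that 10.2% of all tested genes showed, with 9.56% the other way. This count rests on single libraries. Leaving out WT_CTR replicate 1, WT_CTR replicate 2 or KO_CTR replicate 3 gave 0 calls each, and leaving out KO_CTR replicate 1 gave 1, that of Mx2. In the fits that gave 0 calls, 8, 8 and 7 members still had an unadjusted p below 0.05; on all libraries DESeq2 called 6 and limma-trend 4. Without both libraries that held Xist reads 0 members were called and 8 had an unadjusted p below 0.05.

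With 4-OI the picture was uniform. Every tested member fell in KO_4OI against KO_CTR, from 1.55-fold for Igtp to 6.57-fold for Mx1, and Iigp1, with 45 reads over KO_CTR, had 0 in KO_4OI. Of the 8 tested members 8 fell and 0 rose, with a median log2 fold change of -1.74, against 0.019 over all genes tested. 4-OI moved much of the transcriptome, with 27.3% of all tested genes called, 14.2% as lower and 13.0% as higher. All 9 members had groups that did not overlap, with KO_4OI lower, as had 19.6% of all tested genes, while 19.8% were higher without overlap. Igtp was the member whose call rested on single libraries: 6 of the 9 fits that left out a library gave an adjusted p above 0.05, the highest being 0.185 without KO_4OI replicate 1, while the other 7 tested members passed in all 9.

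Against WT_CTR, the KO_4OI libraries were lower for Gbp3, Gbp7 and Mx1, by 2.10-fold, 3.31-fold and 2.72-fold. The other 5 tested members, Gbp2, Irgm1, Irgm2, Igtp and Mx2, had log2 fold changes between -0.49 and 0.20 that did not pass, which does not show that their levels were equal. Of the 8 tested members 3 fell and 0 rose, with 3 at an unadjusted p below 0.05, where 24.3% of all tested genes were called, 12.2% as lower and 12.1% as higher. The median log2 fold change of the members was -0.32, against -0.034 over all genes tested. The groups did not overlap, with KO_4OI lower, for Gbp3, Gbp7, Iigp1 and Mx1, as for 22.1% of all tested genes, against 19.8% that were higher without overlap. The comparisons share libraries: KO_CTR enters the first and second, WT_CTR the first and last, and KO_4OI the second and last, so their values for a member are not independent and are set side by side only. The direct comparison of KO_4OI with WT_CTR changes the labelled genotype and the treatment together.

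**Figure D3:**
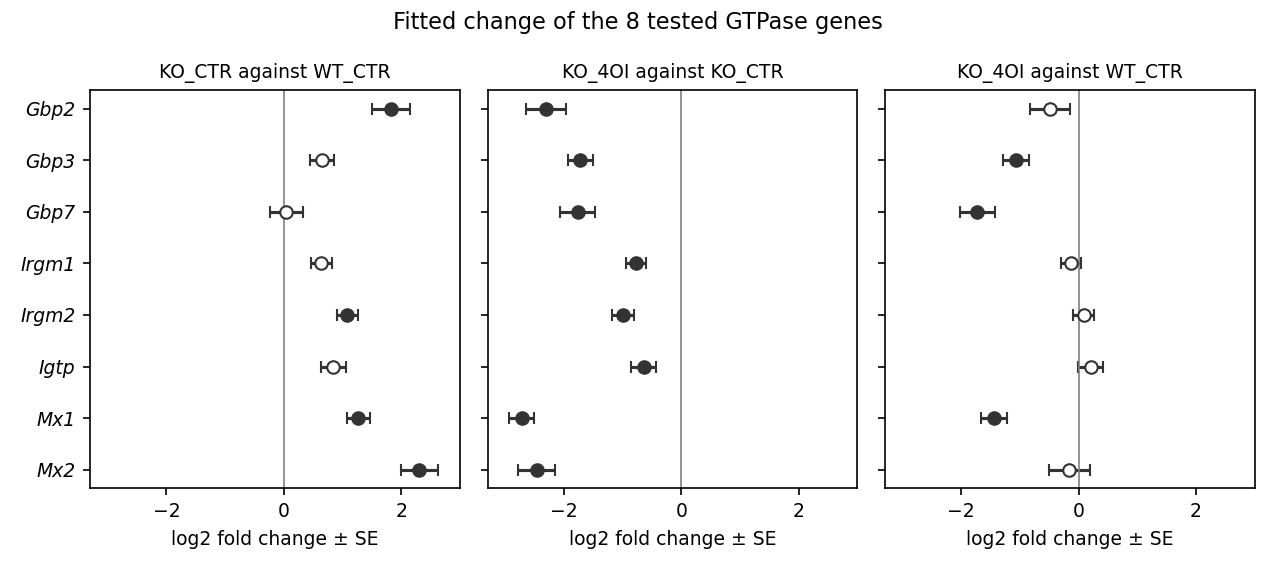
Log2 fold change (x axis) with standard error bars for each tested member (rows) in the 3 comparisons (panels); filled points passed an adjusted p of 0.05 and open points did not. All 8 values of KO_4OI against KO_CTR lie between -2.72 and -0.64, while those of KO_CTR against WT_CTR lie between 0.039 and 2.31.

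The members are described by role, beginning with the regulators. Irgm1, which in mice sits on the Golgi and lysosomes and whose loss leaves the effector GTPases unrestrained, is encoded on chromosome 11 (ENSMUSG00000046879, mm10, 48861968 to 48871683, minus strand). Its level was 18.3, 20.8 and 17.5 CPM in WT_CTR, 26.6, 28.7 and 32.9 CPM in KO_CTR and 18.01, 20.05 and 13.6 CPM in KO_4OI. Every KO_CTR library lay above the other 6, which overlapped with each other. The log2 fold change was 0.64 for KO_CTR against WT_CTR (SE 0.17, adjusted p = 0.104), -0.77 for KO_4OI against KO_CTR (SE 0.18, adjusted p = 0.00527) and -0.13 for KO_4OI against WT_CTR (SE 0.18, adjusted p = 0.664). Only the comparison within the libraries labelled KO passed.

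Irgm2, a Golgi-associated regulator that in mouse macrophages restrains caspase-11 activation together with an ATG8-family protein, lies on chromosome 11 (ENSMUSG00000069874, 58199618 to 58222782, plus strand). Its level was 8.03, 8.01 and 8.58 CPM in WT_CTR, 15.2, 20.8 and 16.1 CPM in KO_CTR and 7.81, 10.2 and 8.13 CPM in KO_4OI. The KO_CTR libraries stood apart, and those of the other groups overlapped. Irgm2 rose by a log2 fold change of 1.08 in KO_CTR against WT_CTR (SE 0.18, adjusted p = 0.0252), and changed by -0.99 in KO_4OI against KO_CTR (SE 0.18, adjusted p = 0.00113); against WT_CTR the KO_4OI value was 0.088 (SE 0.18, adjusted p = 0.791).

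Igtp, also called Irgm3, resides on the endoplasmic reticulum and lipid droplets and is the third regulator. It lies on chromosome 11 (ENSMUSG00000078853, 58199556 to 58207591, plus strand), where 162 bases of its exons overlap those of Irgm2 on the same strand. In WT_CTR its level was 6.53, 6.29 and 8.15 CPM, in KO_CTR 9.79, 14.02 and 13.8 CPM, and in KO_4OI 6.16, 9.30 and 8.74 CPM. The lowest KO_CTR library was close to the highest KO_4OI library, so the groups were separated by a small gap. The log2 fold change was 0.84 for KO_CTR against WT_CTR (SE 0.21, adjusted p = 0.0857) and -0.64 for KO_4OI against KO_CTR (SE 0.21, adjusted p = 0.0389), the smallest change of the tested members with 4-OI. Of the 50-base words in their transcripts, Igtp shared 11.8% and Irgm2 6.79% with other genes of the family, so some reads of this pair may have been assigned to the other gene or dropped, whereas Irgm1 shared none.

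Iigp1 (Irga6), an effector that oligomerises on the vacuole of Toxoplasma in mouse cells, is on chromosome 18 (ENSMUSG00000054072). It held 5, 4 and 6 reads in the WT_CTR libraries, 6, 20 and 19 in KO_CTR and 0, 0 and 0 in KO_4OI. All KO_4OI libraries were at 0, and KO_CTR replicate 1 was close to the WT_CTR libraries in CPM (0.198 against 0.132 to 0.193). The ratio of the summed reads, scaled to library size, was 3.35 for KO_CTR against WT_CTR (95% Clopper-Pearson interval 1.83 to 6.47, covering counting error only). A count of 0 allows up to 3 reads over the KO_4OI group, or 0.0373 CPM. Against that limit the summed reads stood 14.8-fold higher in KO_CTR and 4.41-fold higher in WT_CTR. Only the KO_4OI side is bounded here. The counting error of the KO_CTR and WT_CTR reads is left out, so the true differences can be smaller than these values. No test goes with them, because Iigp1 did not pass the filter on low counts.

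Among the guanylate-binding proteins, Gbp2 is a prenylated member that in mouse cells is recruited to Toxoplasma vacuoles and to cytosolic Francisella. It lies on chromosome 3 (ENSMUSG00000028270, 142620602 to 142638008, plus strand). The Gbp2 level was 2.20, 3.20 and 4.65 CPM in WT_CTR, 10.35, 10.8 and 14.6 CPM in KO_CTR and 2.35, 3.58 and 1.29 CPM in KO_4OI. The 3 KO_CTR libraries were above all others, while WT_CTR and KO_4OI overlapped. Gbp2 rose in KO_CTR against WT_CTR by a log2 fold change of 1.82 (SE 0.33, adjusted p = 0.0290) and fell by 2.31 in KO_4OI against KO_CTR (SE 0.34, adjusted p = 2.31e-04), a 4.94-fold difference. The value for KO_4OI against WT_CTR was -0.49 (SE 0.34, adjusted p = 0.357).

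Gbp3 neighbours Gbp7 and Gbp2 in the same cluster (ENSMUSG00000028268, chromosome 3, 142560026 to 142573209, plus strand). It had 5.45, 6.59 and 6.07 CPM in WT_CTR, 9.85, 7.03 and 11.5 CPM in KO_CTR and 3.23, 2.91 and 2.50 CPM in KO_4OI. The 3 groups formed 3 separate ranges, with KO_CTR replicate 2 close above WT_CTR. The rise to KO_CTR did not pass (log2 fold change 0.65, SE 0.20, adjusted p = 0.140). Gbp3 fell by 1.72 in KO_4OI against KO_CTR (SE 0.22, adjusted p = 6.99e-05) and by 1.07 in KO_4OI against WT_CTR (SE 0.22, adjusted p = 0.00255).

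Gbp7, linked in mice to the assembly of the phagocyte NADPH oxidase, had the highest level per length of the 3 guanylate-binding proteins in WT_CTR (ENSMUSG00000040253, chromosome 3, 142530342 to 142550149, plus strand). Its level was 17.9, 21.4 and 14.6 CPM in WT_CTR, 18.7, 12.8 and 23.9 CPM in KO_CTR and 5.58, 7.50 and 3.22 CPM in KO_4OI. WT_CTR and KO_CTR overlapped fully, and every KO_4OI library lay below both. The log2 fold change of KO_CTR against WT_CTR was 0.039 (SE 0.28, adjusted p = 0.959), and whether it differed from that of Gbp2 was not tested. Gbp7 fell by 1.76 in KO_4OI against KO_CTR (SE 0.30, adjusted p = 6.49e-04) and by 1.73 in KO_4OI against WT_CTR (SE 0.30, adjusted p = 8.00e-04). A processed pseudogene, Gm43802, overlaps 637 bases of its exons on the same strand, and Gbp7 shared 2.26% of its 50-base words with other genes of the family, Gbp3 3.75% and Gbp2 2.03%.

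The Mx genes lie 72400 bases apart on chromosome 16. Mx1, a nuclear inhibitor of influenza virus in mice that carry the functional allele, is on the minus strand (ENSMUSG00000000386, 97447035 to 97462907). The Mx1 level was 3.40, 4.15 and 5.30 CPM in WT_CTR, 9.69, 9.96 and 11.5 CPM in KO_CTR and 1.65, 1.61 and 1.48 CPM in KO_4OI. The ranges of the 3 groups were separate, and those of KO_4OI were the narrowest. Mx1 rose by a log2 fold change of 1.27 in KO_CTR against WT_CTR (SE 0.20, adjusted p = 0.0197), fell by 2.72 in KO_4OI against KO_CTR (SE 0.22, adjusted p = 1.35e-06) and fell by 1.44 in KO_4OI against WT_CTR (SE 0.22, adjusted p = 2.72e-04). It was the only tested member that passed in all 3 comparisons.

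Mx2, a cytoplasmic protein active against vesicular stomatitis virus in mice with an intact allele, is on the plus strand (ENSMUSG00000023341, 97535308 to 97560900) and is annotated as a polymorphic pseudogene, a gene that is intact in some strains only. Its level was low, at 0.348, 0.791 and 0.941 CPM in WT_CTR, 2.98, 4.06 and 3.54 CPM in KO_CTR and 0.624, 0.635 and 0.643 CPM in KO_4OI. These values rest on 9, 24 and 33 reads in WT_CTR, 90, 97 and 98 in KO_CTR and 17 in each KO_4OI library. KO_CTR stood above both other groups, which overlapped. Mx2 had the largest log2 fold change of the tested members for KO_CTR against WT_CTR, 2.31 (SE 0.31, adjusted p = 0.0137), and fell by 2.47 in KO_4OI against KO_CTR (SE 0.32, adjusted p = 9.27e-05). Against WT_CTR the value was -0.16 (SE 0.35, adjusted p = 0.812). Mx1 and Mx2 shared 3.86% and 4.38% of their 50-base words with each other.

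The composition of the group changed with 4-OI. The summed level of the 9 members was 16.7 ± 1.17 CPM per kb in WT_CTR, 30.7 ± 3.61 in KO_CTR and 12.7 ± 2.06 in KO_4OI. The 3 regulators Irgm1, Irgm2 and Igtp held 53.7 ± 2.34% of that sum in WT_CTR (51.2 to 55.9%), 52.1 ± 5.23% in KO_CTR (48.8 to 58.1%) and 73.5 ± 4.49% in KO_4OI (70.1 to 78.6%). The KO_4OI shares lay above those of the other groups, which overlapped. The guanylate-binding proteins held 38.3 ± 2.49%, 35.4 ± 5.67% and 21.8 ± 4.68% of the sum, and the Mx genes 7.88 ± 1.56%, 12.1 ± 0.455% and 4.72 ± 0.649%, in the same order of groups. In a grouping made after the values were seen, the regulators were also set against the effector immunity-related GTPases Iigp1, Gm12250, Tgtp1 and Tgtp2. The effectors summed to 1.48 ± 0.140 CPM per kb in WT_CTR, 4.97 ± 1.21 in KO_CTR and 0.520 ± 0.0311 in KO_4OI. The ratio of regulators to effectors was thus 6.05 ± 0.325 in WT_CTR, 3.27 ± 0.406 in KO_CTR and 17.9 ± 2.28 in KO_4OI, with no overlap between groups. The size of this contrast depends on the genes chosen: with the more abundant effector Ifi47 added, also after the values were seen, the ratio was 1.66 ± 0.231 in WT_CTR, 1.07 ± 0.0630 in KO_CTR and 2.27 ± 0.0742 in KO_4OI, in the same order of groups and without overlap. These shares and ratios are descriptions without a test.

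**Figure D4:**
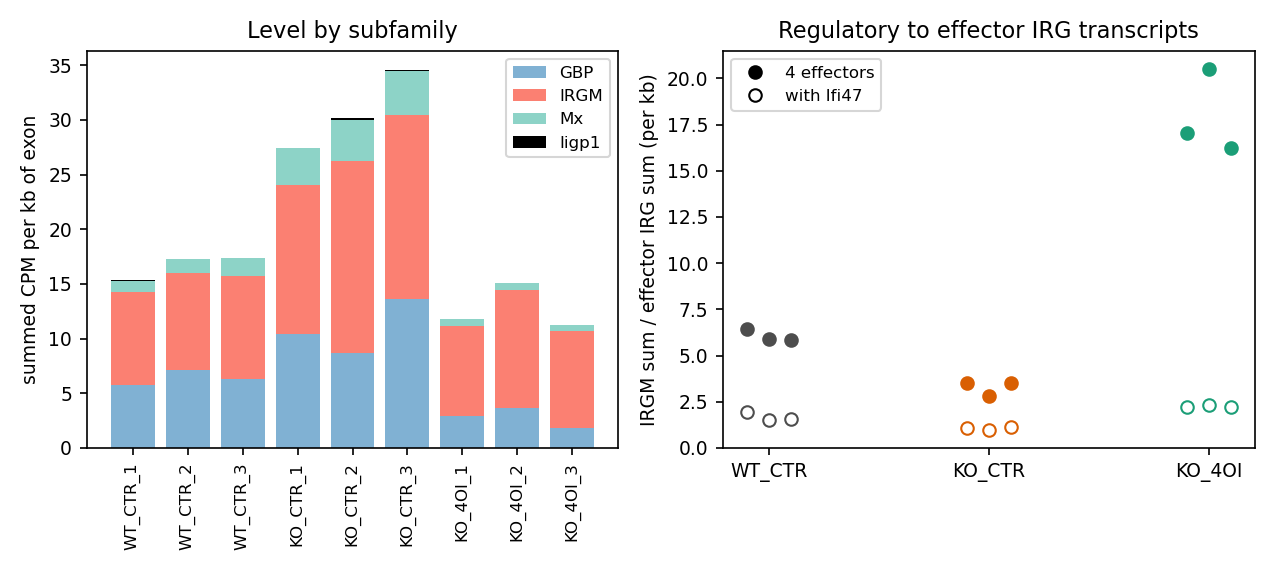
Left, summed level of the members in CPM per kb of exon (y axis) in each library (bars), split into guanylate-binding proteins (GBP), regulators (IRGM), Mx genes and Iigp1; right, ratio of regulators to effector immunity-related GTPases (IRG) in each library, with 4 effectors (filled points) or with Ifi47 added (open points). The regulators hold 70.1 to 78.6% of a bar in KO_4OI and 48.8 to 58.1% in the other groups, and the ratio in KO_4OI is 16.2 to 20.5 with 4 effectors and 2.21 to 2.35 with Ifi47.

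A list of 21 relatives held other guanylate-binding, immunity-related and very large inducible GTPases, of which 12 were tested. It does not hold Ifi47 (Irg47), an effector of the immunity-related family that was added after its values were seen and is given separately. In KO_CTR against WT_CTR 3 of the 12 rose and 0 fell, with a median of 0.97. They were Gm12250 (Irgb10, an effector annotated as a processed pseudogene, 1.79, SE 0.25, adjusted p = 0.0141), Tgtp2 (1.60, SE 0.28, adjusted p = 0.0290) and Gm5431 (1.33, SE 0.25, adjusted p = 0.0413). Without WT_CTR replicate 1, WT_CTR replicate 2 or KO_CTR replicate 3 the count was 0, without KO_CTR replicate 1 it was 1, and without KO_4OI replicate 2 it was 5. In KO_4OI against KO_CTR 7 of the 12 fell and 0 rose, with a median of -1.42, and that count was 7 in all 9 fits that left out a library. Ifi47 had 7.69, 10.97 and 10.7 CPM in WT_CTR, 21.4, 28.001 and 25.3 CPM in KO_CTR and 8.03, 10.08 and 8.47 CPM in KO_4OI, with KO_CTR above both other groups, which overlapped. It rose by 1.34 in KO_CTR against WT_CTR (SE 0.19, adjusted p = 0.0141), a call lost without WT_CTR replicate 1, WT_CTR replicate 2, KO_CTR replicate 3 or the libraries with Xist reads. It fell by 1.49 in KO_4OI against KO_CTR (SE 0.19, adjusted p = 7.67e-05). Against WT_CTR the KO_4OI value was -0.15 (SE 0.19, adjusted p = 0.650).

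The largest falls among the tested relatives were those of the effectors Tgtp2 and Gm12250. Tgtp2 had 0.966, 0.988 and 1.45 CPM in WT_CTR, 3.08, 3.68 and 3.69 CPM in KO_CTR and 0.0734, 0.224 and 0.227 CPM in KO_4OI, 3 separate ranges. Its log2 fold change for KO_4OI against KO_CTR was -4.29 (SE 0.37, adjusted p = 2.56e-06), or 19.5-fold lower. Tgtp2 shared 86.3% of its 50-base words with the family, mostly with its near-identical copy Tgtp1, so its single value is uncertain. Gm12250, which shared none, had 1.24, 1.38 and 1.34 CPM in WT_CTR, 3.47, 6.03 and 4.30 CPM in KO_CTR and 0.587, 0.560 and 0.567 CPM in KO_4OI, and fell 7.97-fold against KO_CTR (log2 fold change -2.99, SE 0.28, adjusted p = 5.09e-06). Gbp5, a guanylate-binding protein that promotes inflammasome assembly and lies 7997 bases from Gbp7, fell by 2.67 (SE 0.34, adjusted p = 7.73e-05). Gbp2b (mouse Gbp1), which lies 1422 bases from Gbp2, had 0 reads in every library.

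Against WT_CTR 5 of the 12 tested relatives were lower in KO_4OI and 0 higher, with a median of -0.61. These were Tgtp2 (-2.69, adjusted p = 2.39e-04), Gm12250 (-1.20, adjusted p = 0.00824), Gbp8 (-1.56, adjusted p = 0.00851), Gbp9 (-1.29, adjusted p = 0.0102) and Gbp5 (-1.38, adjusted p = 0.0104). The relatives that did not pass in either comparison with KO_4OI were 9930111J21Rik1, 9930111J21Rik2, Irgq, Gvin1 and Gm4070. All but Irgq, which shared none, have close copies. With the family 9930111J21Rik1 shared 82.1% of its 50-base words, 9930111J21Rik2 56.7%, Gvin1 98.3% and Gm4070 95%, so their values are uncertain. Of 9 tested dynamin, mitofusin and atlastin GTPases, which shape membranes in uninfected cells, 0 passed in KO_CTR against WT_CTR, with 0 at an unadjusted p below 0.05. Only 0.519% of all tested genes were called there, so a count of 0 does not set these GTPases apart. In KO_4OI against KO_CTR 2 of the 9 fell, Dnm1 (-1.52, adjusted p = 0.00140) and Mfn2 (-0.75, adjusted p = 0.00317). Of all tested genes 14.2% were called as lower in that comparison.

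Genes of the interferon pathway were read from its ligands to its factors. Of 21 interferon genes 0 were tested. Ifnb1, which encodes interferon beta, had 0 reads in the WT_CTR libraries, 1, 5 and 3 in KO_CTR and 0 in the KO_4OI libraries. Ifng, interferon gamma, had 0 reads in every library, which limits it to 3 reads over each group. Such counts cannot show the level of a secreted cytokine that acts at low dose. Of 7 receptor and Janus kinase genes 0 passed in KO_CTR against WT_CTR, with 2 at an unadjusted p below 0.05, and 1 rose in KO_4OI against KO_CTR, the kinase gene Jak2 (0.53, SE 0.17, adjusted p = 0.0299). The Jak2 call was lost without KO_CTR replicate 2, KO_CTR replicate 3, KO_4OI replicate 1 or KO_4OI replicate 2, and in a fit of the 2 groups alone.

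Of 8 STAT and IRF genes 0 passed in KO_CTR against WT_CTR, with 5 at an unadjusted p below 0.05, while DESeq2 called 4 and limma-trend 0. Without WT_CTR replicate 3 edgeR called 5, and without KO_CTR replicate 2 or KO_4OI replicate 2 it called 1. The smallest p-values belonged to Stat2 (0.85, adjusted p = 0.0532), Irf9 (0.87, adjusted p = 0.0618), Irf1 (0.81, adjusted p = 0.0621) and Irf7 (1.45, adjusted p = 0.0661). In KO_4OI against KO_CTR 3 of the 8 fell and 2 rose. Irf7, an amplifier of type I interferon production, had 9.27, 11.7 and 19.0 CPM in WT_CTR, 24.7, 58.7 and 26.2 CPM in KO_CTR and 3.81, 3.77 and 4.09 CPM in KO_4OI. KO_CTR replicate 2 was far above the other libraries of its group, and KO_4OI lay below both other groups. Irf7 fell by 3.23 (SE 0.35, adjusted p = 2.06e-05), Irf9, the DNA-binding part of the type I complex, by 1.62 (SE 0.19, adjusted p = 4.02e-05) and Irf1, an interferon-induced transcription factor, by 0.86 (adjusted p = 0.00263). Irf8, a factor that restrains osteoclast formation, rose by 0.94 (adjusted p = 0.00778), and Irf5 rose by 0.73 (adjusted p = 0.0157), a call lost without KO_CTR replicate 1, KO_CTR replicate 3 or KO_4OI replicate 3.

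Of 7 negative regulators of the pathway the one that moved in every comparison was Usp18, an interferon-induced protease that removes ISG15 and blocks the type I receptor. It had 2.55, 3.29 and 3.11 CPM in WT_CTR, 6.94, 11.3 and 8.61 CPM in KO_CTR and 0.844, 0.635 and 0.378 CPM in KO_4OI. The ranges were separate. Usp18 rose by 1.58 in KO_CTR against WT_CTR (adjusted p = 0.0215), a call lost without WT_CTR replicate 1, WT_CTR replicate 2 or KO_CTR replicate 3. It fell by 3.84 in KO_4OI against KO_CTR (adjusted p = 1.02e-06) and by 2.26 in KO_4OI against WT_CTR. Ptpn6 also fell in KO_4OI against KO_CTR (-0.54, adjusted p = 0.0125), not so without KO_4OI replicate 1. The members were therefore lower together with Irf7, Irf9, Irf1, Usp18 and Ptpn6 in KO_4OI against KO_CTR, while Jak2, Irf5 and Irf8 were higher. Stat2 did not pass in KO_4OI against KO_CTR (-0.43, adjusted p = 0.0854 by edgeR's quasi-likelihood test). Against WT_CTR its value was 0.42 (adjusted p = 0.106), where that of Irf9 was -0.75 (adjusted p = 0.0102).

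**Figure D5:**
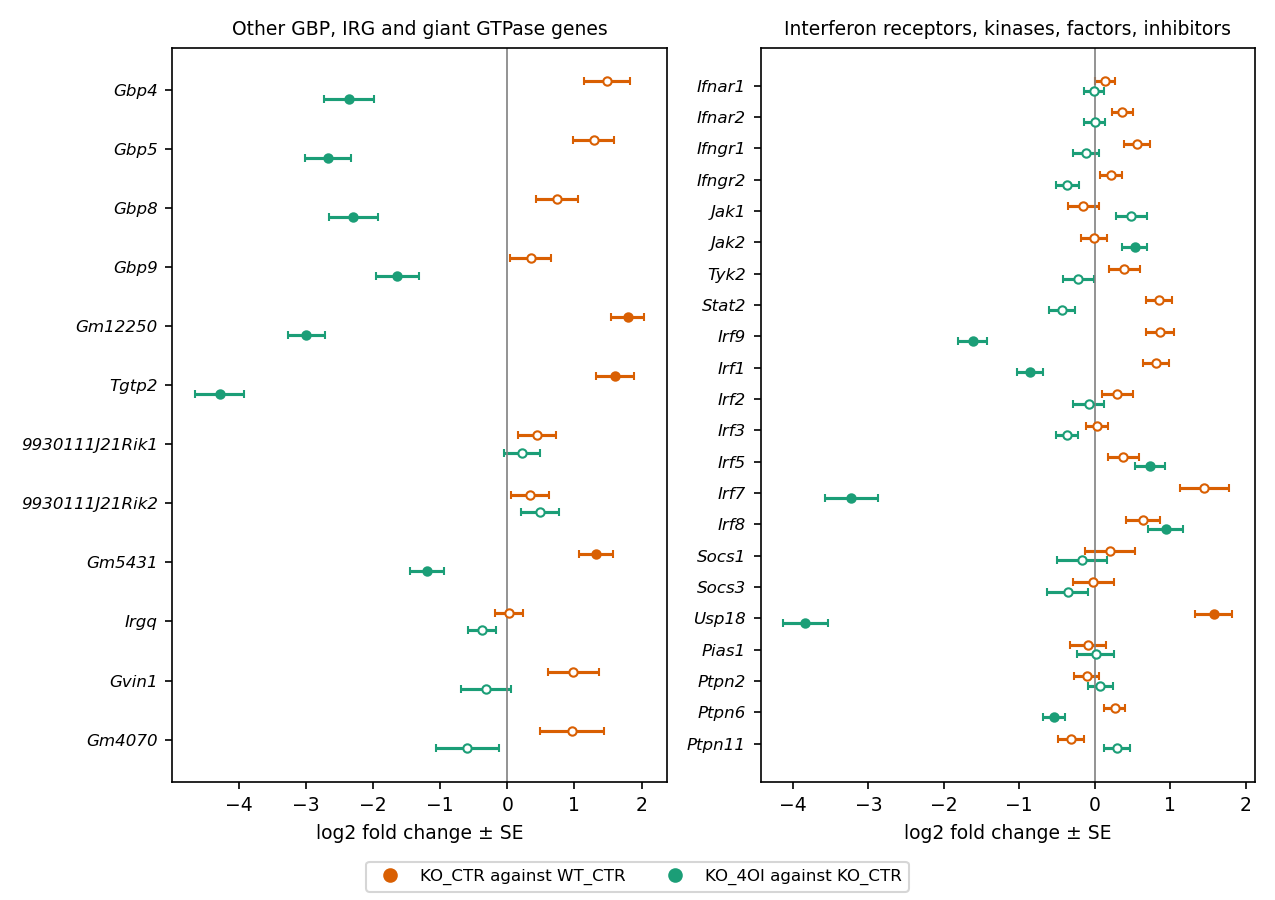
Log2 fold change (x axis) with standard errors for the tested relatives (left, rows) and the tested receptors, kinases, factors and feedback inhibitors of interferon signalling (right, rows) in the 2 comparisons that include KO_CTR (colours); filled points passed an adjusted p of 0.05. Tgtp2, Irf7 and Usp18 lie at -4.29, -3.23 and -3.84 in KO_4OI against KO_CTR, and Irf8 at 0.94.

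Marker lists of cell types that such cultures could hold moved as well. Macrophage markers (10 genes) summed to 1754 to 2170 CPM in WT_CTR, 2357 to 3464 in KO_CTR and 2114 to 2433 in KO_4OI; in KO_CTR against WT_CTR 1 of 10 passed (Mertk) and 9 had an unadjusted p below 0.05. B cell markers (8 genes) summed to 55.3 to 86.3, 101.5 to 143 and 118 to 142 CPM, and dendritic cell markers (8 genes) to 25.6 to 33.4, 51.7 to 61.0 and 55.5 to 59.6 CPM, in the same order; 0 and 1 passed in KO_CTR against WT_CTR, and 8 and 5 had an unadjusted p below 0.05. With single libraries left out, 0 to 3 macrophage, 0 to 5 B cell and 0 to 4 dendritic cell markers passed, the most without WT_CTR replicate 3, and DESeq2 called 4, 5 and 4. Plasmacytoid dendritic cell markers (5 genes) summed to 91.5 to 109, 111 to 141 and 99.0 to 109.8 CPM, and stromal markers (8 genes) to 7.71 to 13.6, 14.3 to 15.9 and 14.8 to 19.1 CPM, with 0 passing in KO_CTR against WT_CTR. The sums of these 5 lists were higher in KO_CTR than in WT_CTR with no overlap, as was that of the members (103 to 129 against 62.4 to 71.4 CPM). The same held for the osteoclast markers (27396 to 33791 against 24274 to 25616 CPM). Such a sum follows its most abundant genes. Single osteoclast markers went in both directions, with a median log2 fold change of 0.089. Sums of T and NK cell, neutrophil and erythroid markers overlapped between the 2 groups. The members summed to 39.6 to 55.8 CPM in KO_4OI.

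Markers within a list moved in different directions with 4-OI. In KO_4OI against KO_CTR 4 of 10 macrophage markers fell and 2 rose; C1qa (-2.11), C1qb, C1qc and Csf1r fell. Of 8 dendritic cell markers 4 fell, Zbtb46 (-2.03), Ccr7 (-2.16), Flt3 and Cd209a, and 2 rose. Zbtb46 (-1.60, adjusted p = 0.00145) and C1qa (-1.18, adjusted p = 0.0299) were also lower in KO_4OI than in WT_CTR, the C1qa call being lost without WT_CTR replicate 3, KO_4OI replicate 1 or KO_4OI replicate 2. Of 5 plasmacytoid dendritic cell markers 2 fell against KO_CTR, Cox6a2 (-1.52, adjusted p = 0.0107) and Siglech (-0.93, adjusted p = 0.0249), with 0 passing without KO_4OI replicate 1 and 1 without KO_CTR replicate 3 or KO_4OI replicate 3. T and NK cell markers (11 genes) summed to 4.63 to 5.64, 5.42 to 6.51 and 3.04 to 3.81 CPM, with Cd3e at 1 read in each group and Gzma at 0. Only 2 of them were tested. Trac fell in KO_4OI against KO_CTR (-2.19, adjusted p = 8.31e-06) and against WT_CTR (-2.09, adjusted p = 1.31e-05), and Nkg7 passed in neither. The untested Cd3g and Klrb1c were higher in KO_4OI than in both other groups without overlap, so the list did not move as a whole. Of 10 osteoclast markers 0 passed in KO_CTR against WT_CTR, with 3 at an unadjusted p below 0.05, and 10 fell in both comparisons with KO_4OI. The part of these shifts in the members' values was not tested, and in bulk RNA fewer cells of a type and less RNA per cell cannot be told apart.

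By the likeness rule, the 10 genes closest to the mean profile of the 8 tested members over the 9 libraries were Slfn8, Ifi203, Abca1, Ddx58, Irf9, Phf11b, Tspyl4, Irf4, Ifi47 and Ddx60. Their root mean square differences from that profile, in centred log2 CPM, ran from 0.191 for Slfn8 to 0.226 for Ddx60. Each of the 8 members, which are part of the mean, differed from it by more, from 0.285 for Gbp3 to 0.619 for Gbp7. The 10 genes were picked for the smallest differences of all tested genes and the members were not, so this order follows from the choice. The cholesterol exporter Abca1 is in this list beside interferon-induced genes such as Ddx58 (RIG-I), a sensor of viral RNA, and Ifi47. The list is a description, and 8 of its 10 genes, all but Phf11b and Ifi47, did not pass in KO_CTR against WT_CTR.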

How the data were processed

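RNA was sequenced from 9 libraries in 3 groups, named and numbered by the sample titles. The authors deposited 1 table of unnormalised counts for each Ensembl identifier, made with fastp, STAR and HTSeq 0.6.1 on mm10, per the submitters' processing notes. Neither the fastp and STAR versions nor the annotation or strand setting used in counting is given in the sources used here. Reads of overlapping genes, antisense ones included, are therefore uncertain, and reads common to close paralogs may have been divided or discarded. Symbols were found for 54409 of 54532 identifiers; 123 had none. Coordinates, exon lengths and 50-base words come from GENCODE vM21, promoters from RefSeq.

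Counts were used as deposited. Genes passing edgeR's filterByExpr (minimum count 10) numbered 14264. All 9 libraries were fitted together with group as the only factor (edgeR 4.0.16, TMM, glmQLFit and glmQLFTest, R 4.3.3; common biological coefficient of variation 0.179), two-sided, with Benjamini-Hochberg adjustment over all genes tested and a threshold of 0.05. Standard errors were taken as the size of the log2 fold change over the root of F. Levels are CPM on TMM-adjusted library sizes. Chi-square per gene between libraries of a group was 8.93 to 103, far above sampling noise, so none was treated as a duplicate. At 24830149 to 35143629 reads per library, ratios below 1 CPM carry a large counting error, and intervals cover that error only. The same scripts were tested on simulated data.

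The members and gene lists, and leaving out the libraries with Xist reads, were chosen with earlier results of these data known. Named genes are the 9 members, Acod1, up to 4 tested genes with the smallest p of each other list per comparison (others are named after their values were seen), and the 10 genes of the likeness rule. A pathway gene is not reported here. The 18 alternatives comprised 2 other scalings (RLE, upper quartile), 2 other filters (none, or 5 CPM on average), DESeq2 1.42.0 and limma-trend (limma 3.58.1) in place of edgeR, fits of the compared groups alone, a replicate block, a fit lacking both libraries with Xist reads, and 9 fits lacking 1 library each. After the values were seen, Ifi47 was added to the effectors in 1 further alternative.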

Additional observations from a re-analysis of the deposited data

How the results depend on the processing

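In KO_4OI against KO_CTR 7 to 9 members were called under the 18 alternatives, and in KO_4OI against WT_CTR 3 to 4. In KO_CTR against WT_CTR, with 4 in the values reported, 6 were called without a low-count filter and 6 with DESeq2, 2 with a mean of at least 5 CPM, where 7 members were tested, and 0 without the libraries with Xist reads; leaving out single libraries gave 0 to 5. Deviations from the group means correlated from -0.41 to 0.32 between libraries with the same replicate number. Differently numbered libraries were not set beside them, so this does not settle whether the titles' numbers pair the libraries. With the number as a block 1 member was called in KO_CTR against WT_CTR, Mx2 (adjusted p = 0.0345). That block left 8 and 3 calls in the comparisons with KO_4OI, and Jak2 lost its call in both. Signs turned only where no call was made. Irgm1 in KO_4OI against WT_CTR was 0.087 without the libraries with Xist reads and -0.25 to 0.012 with single libraries left out. Over such fits Gbp7 in KO_CTR against WT_CTR ran from -0.19 to 0.31 (negative without WT_CTR replicate 3 or KO_CTR replicate 3), and in KO_4OI against WT_CTR Mx2 ran from -0.45 to 0.17 (positive without WT_CTR replicate 3) and Irgm2 from -0.040 to 0.16 (negative without KO_4OI replicate 2). The cause was not tested. With Ifi47 among the effectors, added after the values were seen, the mean ratios of regulators to effectors were 1.66, 1.07 and 2.27 in WT_CTR, KO_CTR and KO_4OI. Without the filter Iigp1 gave an adjusted p of 0.115 for KO_CTR against WT_CTR and 2.21e-07 for KO_4OI against KO_CTR. Other scaling moved the median of all genes by at most 0.080 (log2). Depth limits Iigp1, Mx2 in WT_CTR and all interferon genes.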

Other observations

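Guanylate-binding proteins expose bacterial lipopolysaccharide to caspase-11, the sensor of the noncanonical inflammasome. Of 10 genes of the canonical and noncanonical inflammasomes, all tested, 4 fell and 4 rose in KO_4OI against KO_CTR. Aim2 (adjusted p = 0.153) and Il18 (adjusted p = 0.223) did not pass. Casp4, which encodes mouse caspase-11, fell by 1.47 (adjusted p = 3.87e-05 by edgeR's quasi-likelihood test), Zbp1, a sensor of left-handed nucleic acid, by 2.62 (adjusted p = 7.04e-05), Gsdmd, the pore-forming executor, by 1.15 (adjusted p = 7.05e-05) and Il1b by 1.94. Nlrc4 rose by 1.45 (adjusted p = 5.64e-04), Nlrp3 by 0.75, Pycard by 0.62 and Casp1 by 0.58, the last not without KO_CTR replicate 1, KO_4OI replicate 1 or KO_4OI replicate 2. In KO_CTR against WT_CTR 1 of the 10 rose, Zbp1 (1.80, adjusted p = 0.0285), a call lost without WT_CTR replicate 1, WT_CTR replicate 2, KO_CTR replicate 1 or KO_CTR replicate 3.

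Of 10 ATG8-family and conjugation genes, which place immunity-related GTPases and guanylate-binding proteins on vacuoles, 1 rose in KO_4OI against KO_CTR, Gabarapl1 (0.57, adjusted p = 0.0246), a call lost when any library of either group but KO_CTR replicate 2 was left out; Atg12 passed without KO_CTR replicate 3, and Atg7 without KO_CTR replicate 2. Against WT_CTR Gabarapl1 (1.22) and Atg7 (0.57) were higher. Single libraries left out gave 1 to 4 higher and 0 to 1 lower there, with 1 higher without WT_CTR replicate 1, WT_CTR replicate 2 or KO_4OI replicate 1 and 4 without KO_CTR replicate 2. Of 5 genes of the prenylation enzymes, which attach the lipid anchor of Gbp2, 0 passed in any comparison and 0 had an unadjusted p below 0.05.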
